A study of Arabidopsis thaliana with 12 samples.

Results

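Transcript levels of sid2 seedlings under L-glutamate (L-Glu) were set against those of Col-0 seedlings under L-Glu. The comparison used every library that the sample titles give to sid2 or Col-0 with L-Glu, which made 6 of the 12 libraries of the study, and all 14897 genes of the deposited table. In the study, Arabidopsis thaliana seedlings aged 14 days, kept in liquid culture with sucrose in continuous light, received 20 mM L-Glu or 20 mM urea, and total RNA was sequenced at 48 h. Each of the 4 groups, sid2 under L-Glu, Col-0 under L-Glu, sid2 under urea and Col-0 under urea, had 3 libraries. Col-0 is the common laboratory wild type, and sid2 is a mutant of SALICYLIC ACID INDUCTION DEFICIENT 2 (SID2, also ICS1). All 12 samples carry Col-0 as their labelled genotype, although 6 titles name sid2, as does the design text, and the titles set the groups here. The mutant allele is not given in the sources used here. No untreated seedlings were among the samples, and urea served as the other nitrogen treatment.

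Salicylic acid (SA) is a plant hormone of defence against pathogens. Most of the SA that accumulates in infected Arabidopsis is made in plastids by isochorismate synthase, the product of SID2, exported by EDS5 and coupled to glutamate by PBS3, whose product breaks down to SA. SA is then sensed by NPR proteins, which act with TGA transcription factors, and it is stored or removed by glucosyltransferases and hydroxylases. WRKY transcription factors, above all those of group III, act both upstream and downstream of this hormone.

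Library totals of normalized signal were 4080154 to 4354796 in sid2 and 3900394 to 4419987 in Col-0 under L-Glu, and library medians ranged from 74.1 to 77.1. Correlations between libraries, over genes on the log2 scale, were 0.973 to 0.978 within sid2, 0.951 to 0.960 within Col-0 and 0.900 to 0.957 between the genotypes under L-Glu. Library 2 of Col-0 stood farthest from sid2 for 1236 of the called genes (62.3%), and library 2 of sid2 stood farthest from Col-0 for 998 of them (50.3%). Read depth is not known from the table, which leaves counting error and detection limits out of reach. Whether replicate libraries came from different cultures is not labelled, so each p-value measures the spread between these libraries only. In whole seedlings, fewer cells of a type and less RNA per cell cannot be told apart. Transcripts of chloroplast and mitochondrial genes made up 0.406 to 0.506% of the signal in sid2, against 0.385, 0.858 and 0.572% in Col-0 libraries 1, 2 and 3.

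The transcript of the mutated gene was still abundant in the mutant. SID2 (AT1G74710, chr1:28070295-28074177 in TAIR10.1) had a normalized signal of 7434, 5421 and 7339.6 in sid2 under L-Glu, against 9616, 7461 and 10896 in Col-0 under L-Glu. The groups did not overlap, but the difference did not pass the test (log2 fold change -0.47 ± 0.24 (SE), adjusted p = 0.197, limma with Benjamini-Hochberg adjustment over 14897 genes). Under urea the signal was 43.3, 29.8 and 65.4 in sid2, against 98.3, 100.1 and 89.6 in Col-0 (log2 fold change -1.06, adjusted p = 0.0745). The transcript level therefore does not check which libraries carry the mutation.

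Under L-Glu, 1983 of 14897 genes (13.3%) were called at an adjusted p under 0.05, of which 1083 (7.27%) were higher and 900 (6.04%) lower in sid2. Of these, 895 (6.01%) differed at least 2-fold, 533 (3.58%) upward and 362 (2.43%) downward. Counts of called list members below are to be read against the 7.27% and 6.04% of all genes. The 3 sid2 values did not overlap the 3 Col-0 values for 5037 genes (33.8%). Any lack of overlap given below is to be read against that share. The 15 highest and 15 lowest genes named below were picked from called genes without overlap, so their lack of overlap is no separate result. Under urea, 37 genes (0.248%) were called, 10 higher (0.0671%) and 27 lower (0.181%) in sid2. The genotype difference under L-Glu itself differed from that under urea for 291 genes (1.95%), 191 in the upward (1.28%) and 100 in the downward direction (0.671%), by the interaction term of the same model, and 269 of these were also called under L-Glu with the same sign. Scaling each library to one total turned the split into 344 upward and 71 downward calls for the interaction and into 8 higher and 52 lower for urea, and moved the all-gene median of the interaction from -0.044 to 0.079. The count under L-Glu was 838 without Col-0 library 2 and 792 without sid2 library 2, and all 1983 estimates kept their sign in both cases. Of the 291 interaction calls, 43 and 9 were made again in these cases. Interaction counts of the lists below were not followed through the alternatives. The median log2 fold change of all genes was -0.03 under L-Glu and 0.01 under urea.

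**Figure D1:**
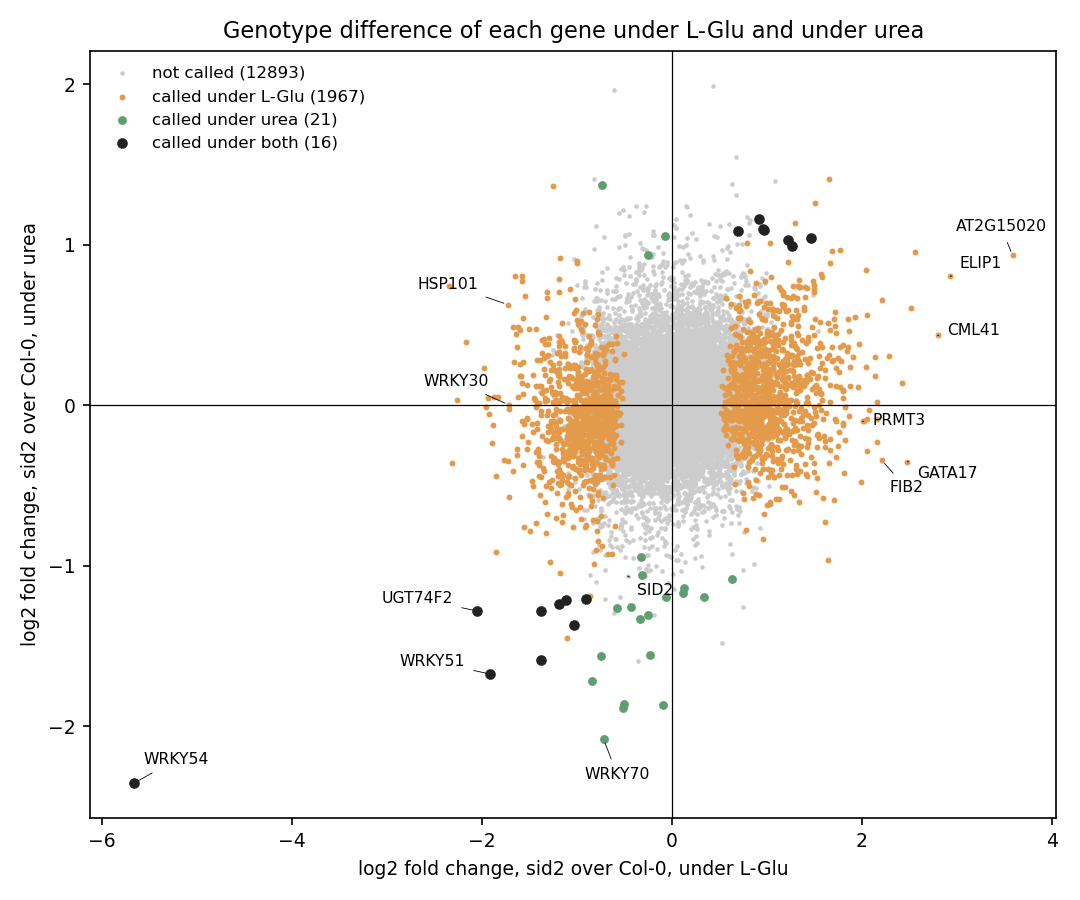
Log2 fold change of sid2 over Col-0 under L-Glu (horizontal axis) and under urea (vertical axis) for each of 14897 genes, with genes called in either treatment coloured. The cloud of called genes is wide along the L-Glu axis, WRKY54 lies alone at the lower left, and the 16 genes called under both treatments lie at the lower left and upper right.

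The largest difference in either direction was in WRKY54 (AT2G40750), a group III WRKY factor that acts with WRKY70 in SA signalling and leaf senescence. Its normalized signal was 12.4, 10.7 and 8.84 in sid2 under L-Glu, against 657, 568 and 953 in Col-0 under L-Glu. Every sid2 library lay far below every Col-0 library, at a ratio of group means of 0.0147 (log2 fold change -5.66 ± 0.24 (SE), adjusted p = 5.28e-11). Under urea WRKY54 had 5.68, 6.49 and 8.13 in sid2, against 52.4, 51.3 and 42.8 in Col-0 (log2 fold change -2.35, adjusted p = 0.000168), and the 2 genotype differences were themselves unequal (interaction -3.31, adjusted p = 0.000184). The sid2 values under L-Glu were 8.84 to 12.4, close to the lowest values of any gene in those libraries, 4.26 to 5.10. The 250 bases before the annotated WRKY54 start (chr2:17002529-17002778 in TAIR10.1, minus strand, RefSeq genome and annotation) are shown because this gene carries the strongest difference. They were searched on both strands for the W-box core TTGAC bound by WRKY factors, the TGACG motif of TGA factors, the G-box CACGTG, the telo-box AAACCCTA, the site II element TGGGCC or TGGGCT, and the heat shock element core GAANNTTC or TTCNNGAA, and held 0 of each. For comparison, the W-box core was found in 45.7% and the TGACG motif in 19.8% of the 14815 windows of the same length.
WRKY54: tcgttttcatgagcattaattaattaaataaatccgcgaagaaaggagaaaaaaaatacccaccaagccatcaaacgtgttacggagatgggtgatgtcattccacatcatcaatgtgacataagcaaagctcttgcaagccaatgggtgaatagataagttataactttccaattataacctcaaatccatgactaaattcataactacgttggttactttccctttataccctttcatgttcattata

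Of the other group III WRKY factors, WRKY30, a gene induced by oxidative stress and pathogens, had 4112, 3560.4 and 4061 in sid2 under L-Glu, against 13958, 10663 and 14268 in Col-0 under L-Glu. All sid2 libraries were below all Col-0 libraries (log2 fold change -1.72 ± 0.25 (SE), adjusted p = 0.000446). Under urea the gene was weak in both genotypes, at 5.73, 1.97 and 4.53 in sid2, against 4.8, 1.26 and 6.72 in Col-0 (log2 fold change 0.002, interaction -1.72, adjusted p = 0.0245). WRKY53, a regulator of leaf senescence, was lower by a smaller margin (log2 fold change -0.87, adjusted p = 0.0332), a call lost without Col-0 library 1 or 3 or any 1 sid2 library, with a pseudocount of 0.1 (adjusted p = 0.0539), after quantile normalization (0.0509) and without the intensity trend (0.0528). WRKY70 had 2222, 1847 and 1785 in sid2, against 4018, 2081 and 3929.7 in Col-0, with overlap at Col-0 library 2 (log2 fold change -0.72, adjusted p = 0.0758), and passed the test without that library (-1.03, adjusted p = 0.0237). Fits of the 6 L-Glu libraries alone, and fits without Col-0 urea library 1 or 3, also called WRKY70 lower under L-Glu. WRKY70 was called lower under urea (-2.08, adjusted p = 0.0018). WRKY46 was not called in either treatment in the main fit (-0.59 under L-Glu). With the replicate number as a block, WRKY46 was called lower under L-Glu (adjusted p = 0.0175, and 0.0245 in the 6 L-Glu libraries alone). Thus 3 of the 5 measured group III factors were lower in sid2 under L-Glu, WRKY53 among them, and the median of the 5 was -0.87. The count was 4 without Col-0 library 2 and 2 without sid2 library 2.

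WRKY51, a group IIc factor that acts in SA-dependent repression of jasmonate responses, was among the most abundant of the lowered genes. Its signal was 3411, 2363 and 3015 in sid2 under L-Glu, against 11945, 8257 and 13221 in Col-0 under L-Glu, with no overlap (log2 fold change -1.91 ± 0.29 (SE), adjusted p = 0.000546), and it was also lower under urea (-1.67, adjusted p = 0.0187). WRKY18, a group IIa factor induced by SA, was higher instead, with 1112, 1028 and 802 in sid2, against 547, 347 and 642 in Col-0 (log2 fold change 0.97, adjusted p = 0.0122). That call was lost without Col-0 library 2 (0.71, adjusted p = 0.0826) or sid2 library 1 or 2, while the interaction was called (1.64, adjusted p = 0.0245). Among 16 measured WRKY factors of groups I, IIa and IIc, 1 was higher and 1 lower (6.25% each), against 7.27% and 6.04% of all genes. Among 18 of groups IIb, IId and IIe, WRKY22 was higher (0.79) and WRKY14 (-0.95) and WRKY7 (-0.58) were lower, and 0 of those 3 calls held without library 2 of either genotype.

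Enzymes that conjugate or hydroxylate SA were lower in sid2 for 3 of 5 measured members, with a median log2 fold change of -1.19, and all 3 calls were also made without library 2 of either genotype. UGT74F2, which makes the glucose ester of SA, had 37.3, 49.3 and 47.7 in sid2 under L-Glu, against 197, 209 and 182 in Col-0 under L-Glu. The highest sid2 library was well below the lowest Col-0 library (log2 fold change -2.05 ± 0.20 (SE), adjusted p = 2.03e-05). DMR6, an SA 5-hydroxylase, had 338, 346 and 346 in sid2, against 804, 749 and 813 in Col-0, with very little spread in either genotype (log2 fold change -1.19 ± 0.19 (SE), adjusted p = 0.000857). UGT76B1, a glucosyltransferase for SA and N-hydroxypipecolic acid, had 100.1, 77.7 and 84 in sid2, against 175, 356 and 287 in Col-0 (log2 fold change -1.55 ± 0.25 (SE), adjusted p = 0.00088). UGT74F2 (-1.28, adjusted p = 0.00791) and DMR6 (-1.24, adjusted p = 0.00672) were also lower under urea, and UGT76B1 was not called there (-0.76, adjusted p = 0.455).

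**Figure D2:**
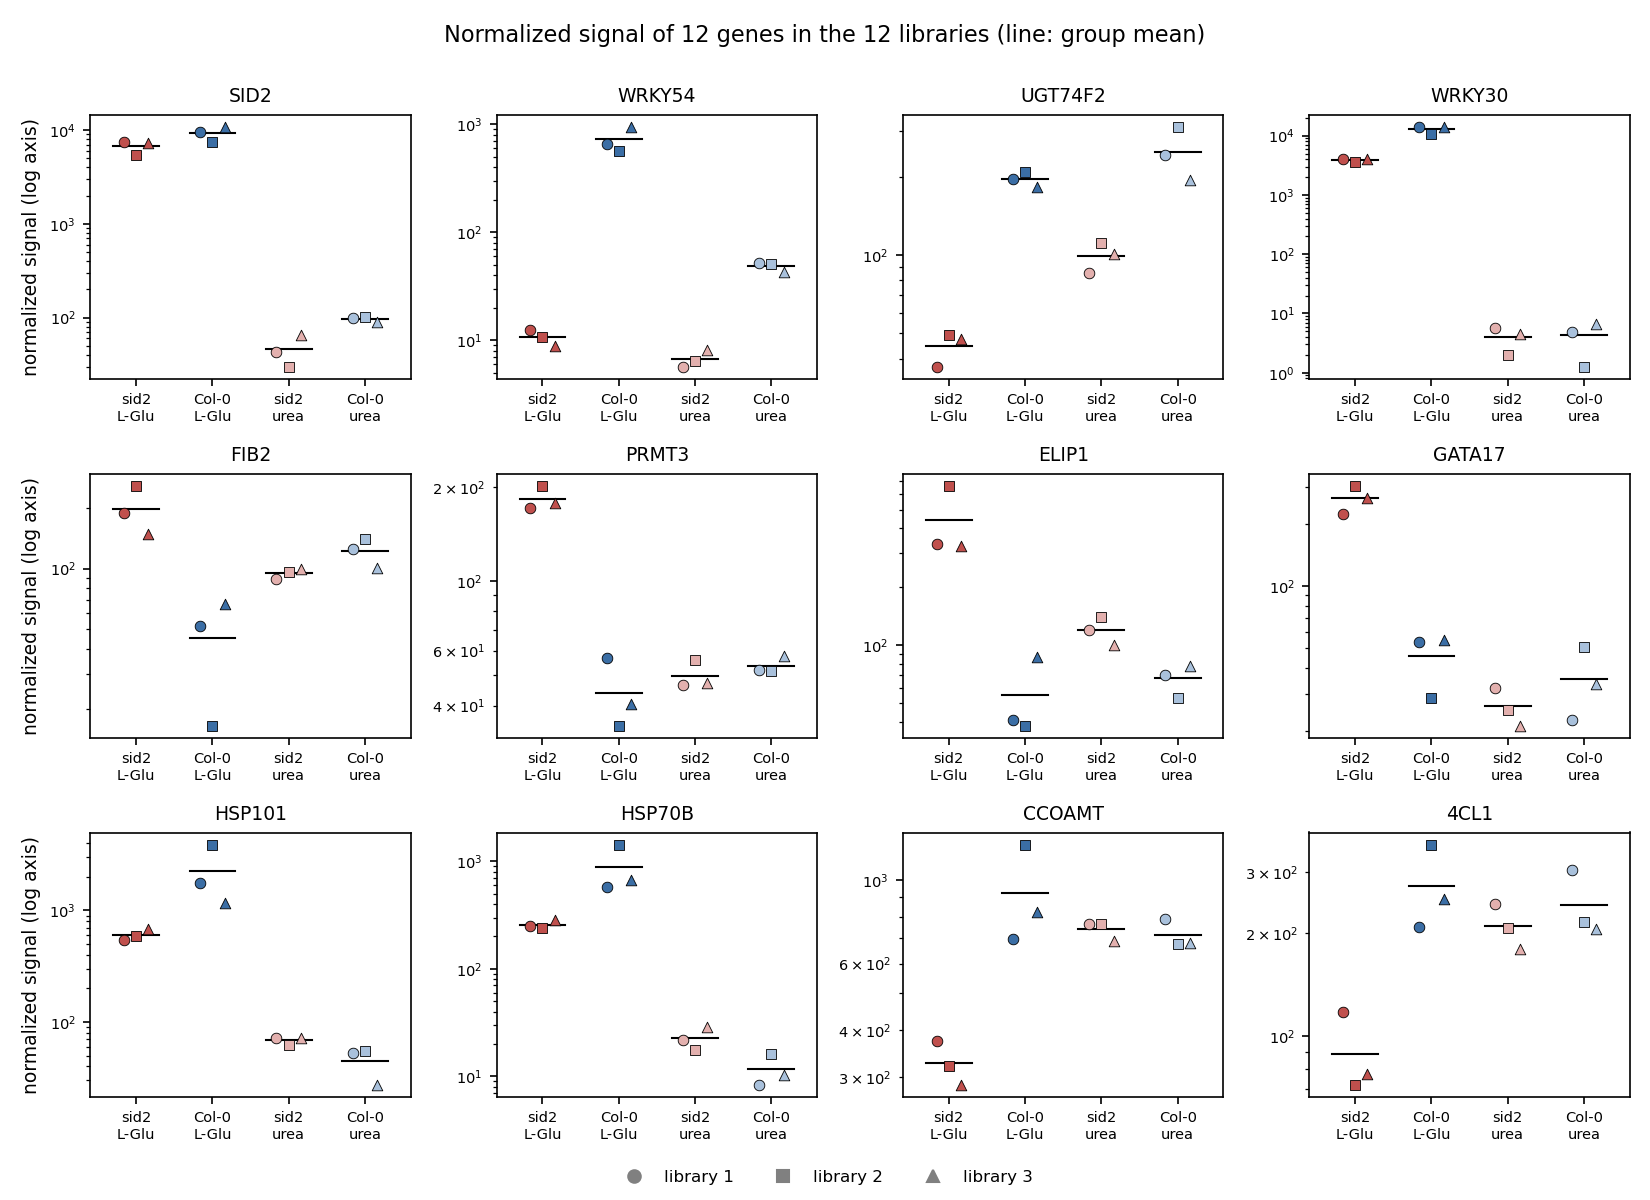
Normalized signal (log axis) of 12 genes in each of the 12 libraries, with sid2 left of Col-0 within each treatment and a line at each group mean. WRKY54, UGT74F2 and WRKY30 were lower in all sid2 L-Glu libraries, FIB2, PRMT3, ELIP1 and GATA17 higher, and the heat shock and phenylpropanoid genes of the bottom row and SID2 show Col-0 library 2 as the highest or lowest Col-0 value under L-Glu.

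SA synthesis and its regulators did not pass the test under L-Glu, with 0 of 7 measured genes called and a median of -0.32. PBS3 had 9373, 8256 and 9968 in sid2, against 14433, 12001 and 14932 in Col-0 (log2 fold change -0.58, adjusted p = 0.0688), a difference called with a pseudocount of 5 (adjusted p = 0.0478). PBS3 was also called with the replicate number as a block (adjusted p = 0.0279, and 0.0333 in the 6 L-Glu libraries alone) and without Col-0 urea library 1 (0.0426). SARD1, a transcriptional activator of SID2, had 3091, 3358 and 3121 in sid2, against 5186, 3287 and 5440.1 in Col-0, with overlap (log2 fold change -0.51, adjusted p = 0.21), and was called lower under urea (-1.86, adjusted p = 0.00382). EDS5 had a log2 fold change of -0.32 (adjusted p = 0.302). Among 8 measured genes of the EDS1 node and pipecolic acid synthesis, the helper immune receptor ADR1 was higher (log2 fold change 0.78, adjusted p = 0.0219) and the reductase SARD4 lower (log2 fold change -0.98, adjusted p = 0.0461), and neither call held without library 2 of either genotype. Of 14 NPR receptors and TGA factors, 2 were lower (14.29%) and 0 higher, against 6.04% and 7.27% of all genes. TGA7 had 43.7, 30.9 and 53.2 in sid2, against 70.9, 126 and 116 in Col-0 (log2 fold change -1.22 ± 0.25 (SE), adjusted p = 0.00428), and TGA10 was also lower (log2 fold change -0.90, adjusted p = 0.0249), which did not hold without library 2 of either genotype. Of 11 measured SA response genes, 3 were lower under L-Glu (WRKY54, WRKY51 and the receptor-like kinase gene CRK5) and 5 under urea. Over all genes, 6.04% and 0.181% were lower. The list's median was -0.09 under L-Glu, with 4 estimates above 0 and 7 below, and -0.99 under urea. CRK5 (log2 fold change -0.82, adjusted p = 0.0351) lost its call without Col-0 library 1 or 2 or sid2 library 2.

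Surface and intracellular immune receptors changed in single members. LYK5, a chitin receptor, was lower, with 446, 352 and 357 in sid2, against 1110.2, 1227 and 876 in Col-0 and no overlap (log2 fold change -1.46 ± 0.21 (SE), adjusted p = 0.000379). RLM3, a TIR-domain resistance gene, was higher, with 248, 310.3 and 218 in sid2, against 60.3, 24.1 and 112 in Col-0 (log2 fold change 2.14 ± 0.33 (SE), adjusted p = 0.000546). RPP13, a receptor of downy mildew effectors, was also higher (log2 fold change 0.98, adjusted p = 0.00335), while AT1G63730 (TIR-NBS-LRR class, log2 fold change -1.87, adjusted p = 0.00313) and AT1G72910 (TIR domain, log2 fold change -1.85, adjusted p = 0.000798) were lower. Of 33 listed genes of pattern-triggered immunity, 3 were higher (9.09%) and 4 lower (12.1%), against 7.27% and 6.04% of all genes. These counts became 0 and 1 without Col-0 library 2, and 1 and 2 without sid2 library 2. The danger peptide receptor gene PEPR2 (-1.38), EFR, the receptor of bacterial elongation factor Tu (-0.79), and the MAP kinase kinase gene MKK5 (0.81, higher) were among the calls lost without Col-0 library 2. Of 16 intracellular receptors, 2 were higher and 2 lower (12.5% each), and both lower calls, CSA1 (-1.09) and ZAR1 (-0.64), were lost without sid2 library 2. Among 25 calcium signalling genes, 3 were higher and 3 lower (12% each), which became 1 and 2 without Col-0 library 2 and 1 and 1 without sid2 library 2. The calmodulin-like gene CML43 (-1.16, lower) lost its call without sid2 library 2, and the calcium pump gene ACA12 (0.77, higher) without library 2 of either genotype. CML41, a calmodulin-like protein of plasmodesmata, had 1309.8, 1588 and 859 in sid2 under L-Glu, against 289, 77.6 and 223 in Col-0 under L-Glu, so that the lowest sid2 library was above the highest Col-0 library (log2 fold change 2.8 ± 0.40 (SE), adjusted p = 0.000412). CIPK20, a protein kinase that works with CBL calcium sensors, was also higher (log2 fold change 2.55, adjusted p = 0.000355), and the cation channel gene CNGC20 was lower (log2 fold change -0.91, adjusted p = 0.00751). The NADPH oxidase gene RBOHE was lower, with 40.4, 30.4 and 46.2 in sid2, against 115, 130.5 and 72.4 in Col-0 (log2 fold change -1.34, adjusted p = 0.00299), as 1 of 2 lowered among 8 oxidase genes measured. The other, RBOHD (-0.62), lost its call without any 1 of the 6 L-Glu libraries.

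Genes of nucleolar ribosome biogenesis had the largest share of calls among the 59 lists examined. Of 30 genes measured, 22 were higher and 0 lower in sid2, against 7.27% of all genes called higher, and the median log2 fold change was 1.09, against -0.03 for all genes. All 30 estimates were above 0. Without Col-0 library 2 there were 19 calls (median 0.87), and without sid2 library 2 there were 20 (median 1.04). Under urea 0 of the 30 were called (median -0.14). The interaction was called for 13, all upward, against 1.28% of all genes. Over all genes, 43 of the 291 interaction calls were made again without Col-0 library 2 and 9 without sid2 library 2. The 13 were not followed through these cases.

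FIB2, one of a pair of similar fibrillarin genes whose products methylate ribosomal RNA, had 189, 259 and 149 in sid2 under L-Glu, against 51.7, 16.6 and 66.9 in Col-0 under L-Glu. All sid2 values were above all Col-0 values, and Col-0 library 2 was the lowest (log2 fold change 2.21 ± 0.33 (SE), adjusted p = 0.000546). PRMT3, an arginine methyltransferase that acts in pre-rRNA processing, had 172, 202 and 177 in sid2, against 56.9, 34.5 and 40.3 in Col-0, again without overlap (log2 fold change 2.01 ± 0.22 (SE), adjusted p = 3.91e-05). ENP1, an assembly factor of the small subunit, had 413, 479 and 446 in sid2, against 193, 94.6 and 144 in Col-0 (log2 fold change 1.66 ± 0.24 (SE), adjusted p = 0.000412). The large-subunit GTPase LSG1-2 had 104, 148 and 147 in sid2, against 48.27, 30.8 and 45.3 in Col-0, with no overlap (log2 fold change 1.61, adjusted p = 0.00088). TRM82, whose yeast counterpart is a subunit of a tRNA methyltransferase, had 65.7, 85.2 and 106 in sid2, against 30.1, 20.5 and 24 in Col-0, while under urea its estimate pointed the other way (-0.96, adjusted p = 0.295). Smaller rises were seen in genes named after their values were seen: FIB1 (1.14), NUC-L1 (nucleolin, 1.09), CBF5 (the pseudouridine synthase of box H/ACA particles, 1.33), NUG2 (a GTPase of the large subunit, 1.09), REIL2 (a large-subunit maturation factor, 1.16) and NOP56 (1.09). Also among the 15 highest of all genes was AT1G10300, annotated as a nucleolar GTP-binding protein (log2 fold change 2.13, adjusted p = 0.00112).

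Plant ribosome biogenesis and ribosomal protein genes are known for promoters that carry telo-boxes and for site II elements, which TCP factors bind. In the 250-base windows before the annotated starts, the site II element was found in 18 of 30 nucleolar genes (60%) and the telo-box in 6 (20%). Over all 14815 windows the shares were 24% and 3.46%. Among 1082 windows of genes called higher they were 30% and 7.12%, and among 898 windows of genes called lower 16.8% and 2%. The windows of NUG2 (chr1:19737155-19737404, plus strand), REIL2 (chr2:10402935-10403184, minus strand) and FIB1 (chr5:21293897-21294146, plus strand), read from the RefSeq TAIR10.1 genome, are shown. They were picked among called genes because they hold both elements and no annotated exon base. Capitals mark telo-boxes and site II elements, each on either strand, so that TAGGGTTT, GGCCCA and AGCCCA are matches on the opposite strand.
NUG2: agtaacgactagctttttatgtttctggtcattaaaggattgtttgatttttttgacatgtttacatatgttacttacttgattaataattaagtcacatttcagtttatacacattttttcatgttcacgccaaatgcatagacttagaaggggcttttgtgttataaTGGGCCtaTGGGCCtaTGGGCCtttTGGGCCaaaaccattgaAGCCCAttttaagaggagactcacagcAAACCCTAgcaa
REIL2: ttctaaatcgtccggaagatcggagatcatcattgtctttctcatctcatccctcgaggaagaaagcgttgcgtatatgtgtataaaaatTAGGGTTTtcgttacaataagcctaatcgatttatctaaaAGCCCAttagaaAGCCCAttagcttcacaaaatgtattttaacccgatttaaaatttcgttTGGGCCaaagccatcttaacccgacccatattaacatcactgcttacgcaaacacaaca
FIB1: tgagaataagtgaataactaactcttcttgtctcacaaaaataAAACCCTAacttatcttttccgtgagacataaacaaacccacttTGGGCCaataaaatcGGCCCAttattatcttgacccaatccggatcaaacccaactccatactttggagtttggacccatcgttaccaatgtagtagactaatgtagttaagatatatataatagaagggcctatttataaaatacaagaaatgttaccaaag
NUG2 thus holds 5 site II elements and 1 telo-box, REIL2 3 and 1, and FIB1 2 and 1. The signal of NUG2 was 297, 377 and 388 in sid2, against 142, 134 and 228 in Col-0. That of REIL2 was 356, 309 and 272 in sid2, against 167, 100.2 and 153 in Col-0, and that of FIB1 was 789, 831 and 782 in sid2, against 460.2, 298 and 344 in Col-0. The genotypes did not overlap in any of the 3 genes, as in 33.8% of all genes. The 3 were picked among called genes, so this is no separate result. Of the other list genes named above, 6 rose more than these. FIB2, PRMT3 and LSG1-2 held 0 copies of either element in their windows. ENP1, TRM82 and CBF5 held 2, 3 and 2 site II elements and 0 telo-boxes. A part of these elements in the differences was not tested.

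Cytosolic ribosomal protein genes were higher in sid2 for 15 and lower for 0 of 30 measured, against 7.27% and 6.04% of all genes. Their median was 0.69, and under urea 0 were called (median -0.19). The count was 8 without Col-0 library 2, 5 without sid2 library 2 and 9 after quantile normalization. RPS18A had 245, 351 and 263 in sid2, against 97.7, 71.1 and 161 in Col-0 (log2 fold change 1.41 ± 0.25 (SE), adjusted p = 0.00143). RPL5B had 651, 772 and 617 in sid2, against 312, 312 and 373 in Col-0 (log2 fold change 1.02 ± 0.19 (SE), adjusted p = 0.00189), and RPSAB, chosen after its value was seen, had a log2 fold change of 1.49 (adjusted p = 0.00624). The ribosomal protein genes AT3G57490 (S5 family, log2 fold change 2.15, adjusted p = 0.00198) and AT1G23410 (S27a and ubiquitin, log2 fold change 2.16, adjusted p = 0.00416) were among the 15 highest of all genes. Site II elements were found in 19 of the 30 windows (63.3%) and telo-boxes in 6 (20%). Of 16 nuclear-encoded plastid ribosomal protein genes, 0 were called (median 0.01). RPS6 (1.06) and RPS5B (1.04) were also higher. Ribosomal protein genes have near-identical paralogs between which reads may have been divided.

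Regulators of greening were higher for 7 (46.67%) and lower for 1 (6.67%) of 15 measured genes, against 7.27% and 6.04% of all genes, with a median of 0.93. ELIP1, an early light-induced protein of the thylakoid, had 333, 666 and 323 in sid2 under L-Glu, against 41, 38.2 and 86.2 in Col-0 under L-Glu. Library 2 of sid2 was the highest, and the lowest sid2 value was several times the highest Col-0 value (log2 fold change 2.93 ± 0.30 (SE), adjusted p = 2.2e-05). GATA17, of the B-GATA family that promotes chlorophyll formation, had 223, 305 and 265 in sid2, against 53.7, 28.8 and 55 in Col-0 (log2 fold change 2.48 ± 0.29 (SE), adjusted p = 0.000111), and 26.3 on average in sid2 and 35.7 in Col-0 under urea. HY5, the central bZIP factor of light signalling, had 256, 317 and 268 in sid2, against 104, 61.7 and 80.2 in Col-0 (log2 fold change 1.75 ± 0.22 (SE), adjusted p = 0.000188). Its homologue HYH had 348, 436 and 432 in sid2, against 113, 79.5 and 169 in Col-0 (log2 fold change 1.78 ± 0.26 (SE), adjusted p = 0.000412). The interaction was called for ELIP1, GATA17, HY5 and HYH. GNC (a B-GATA, 1.49), SIG5 (a light-responsive plastid sigma factor, 1.26) and BBX22 (a B-box protein acting with HY5, 0.96) were also higher and BBX21 lower (-0.82, lost without sid2 library 2), all chosen after their values were seen. HY5 binds the G-box, and the 250 bases before ELIP1 (chr3:8085670-8085919, minus strand, TAIR10.1) are shown because they hold 1 G-box, in capitals, as did 7.55% of all windows and 2 of the 15 windows of this list (13.3%).
ELIP1: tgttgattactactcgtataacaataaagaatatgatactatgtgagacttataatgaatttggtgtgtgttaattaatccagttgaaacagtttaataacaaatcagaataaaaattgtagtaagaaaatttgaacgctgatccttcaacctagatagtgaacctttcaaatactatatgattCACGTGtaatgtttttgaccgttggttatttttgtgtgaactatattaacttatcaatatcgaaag

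Of 48 photosystem, electron transport and light-harvesting genes, 11 were higher (22.92%) and 1 lower (2.08%) in sid2 under L-Glu, with a median of 0.41. Over all genes, the shares were 7.27% and 6.04%. The sums that follow are of the 48 genes. Their summed signal was 7121, 8767 and 8633 in sid2, against 5498, 3928 and 6314 in Col-0. FNR2, a ferredoxin-NADP reductase, had 198, 204 and 236 in sid2, against 71, 39.1 and 56 in Col-0 under L-Glu, and 2054, 2134 and 2318 in sid2, against 2045, 1585 and 1682 in Col-0 under urea (log2 fold change 1.91 ± 0.20 (SE), adjusted p = 2.7e-05 under L-Glu). The Rieske protein gene PETC (log2 fold change 1.3, adjusted p = 0.000866), the ATP synthase subunit gene ATPD (log2 fold change 1.33, adjusted p = 0.00108) and the antenna gene LHCB2.1 (log2 fold change 1.32, adjusted p = 0.00263) were higher, and LHCB1.1 was lower (log2 fold change -0.78, adjusted p = 0.028). The LHCB1.1 call was lost without library 2 of either genotype, and this gene has near-identical copies. The list's calls were 8 higher and 0 lower without Col-0 library 2 and 9 higher and 0 lower without sid2 library 2, and the median without Col-0 library 2 was 0.22. The interaction was called for 1 gene upward (FNR2) and 1 downward (LHCB1.1), and the list's median under urea was 0.44 with 0 genes called.

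Rubisco and Calvin cycle genes were higher for 7 and lower for 1 of 21, with a median of 0.54, and for 3 and 0 without Col-0 library 2. Over all genes, 7.27% were called higher and 6.04% lower. Under urea this list's median was 0.39 with 0 genes called, and the interaction was called for 0. RBCS1A, a Rubisco small subunit with near-identical paralogs, had 1431, 1879.8 and 2080.5 in sid2, against 487, 374 and 965 in Col-0 (log2 fold change 1.66, adjusted p = 0.00396). CP12-2, a redox regulator of the cycle, was higher (log2 fold change 1.57, adjusted p = 0.00489), as was Rubisco activase RCA (log2 fold change 1.26, adjusted p = 0.0124), whose call was lost without sid2 library 3 (0.79, adjusted p = 0.066). GAPB, a glyceraldehyde phosphate dehydrogenase subunit, was higher (1.04, lost without Col-0 library 2). A list of chlorophyll enzymes had 3 of 21 genes higher and 0 lower, and 1 higher without Col-0 library 2. The 3 were CHLI1, a magnesium chelatase subunit (0.85), CAO, which makes chlorophyll b (0.80), and CLH2, a chlorophyllase, which removes the phytol tail (1.68), and CLH2 was called without Col-0 library 2. Circadian clock genes were higher for 9 of 30 and lower for 0, with a median of 0.37, and for 4 without Col-0 library 2 and 5 without sid2 library 2. Under urea the clock list's median was 0.21 with 0 genes called, and the interaction was called for 0. The activator RVE8 had 317, 346 and 343 in sid2, against 167, 116 and 209 in Col-0 (log2 fold change 1.05 ± 0.20 (SE), adjusted p = 0.00231). The pseudo-response regulator PRR9 had 913, 879.5 and 1169.9 in sid2, against 467, 300.4 and 467 in Col-0 (log2 fold change 1.27 ± 0.26 (SE), adjusted p = 0.00402), and LUX (log2 fold change 0.98, adjusted p = 0.00468) and LHY (log2 fold change 0.88, adjusted p = 0.0071) were also higher. Seedlings were under continuous light, and the hour of harvest was not given in the sources used here.

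**Figure D3:**
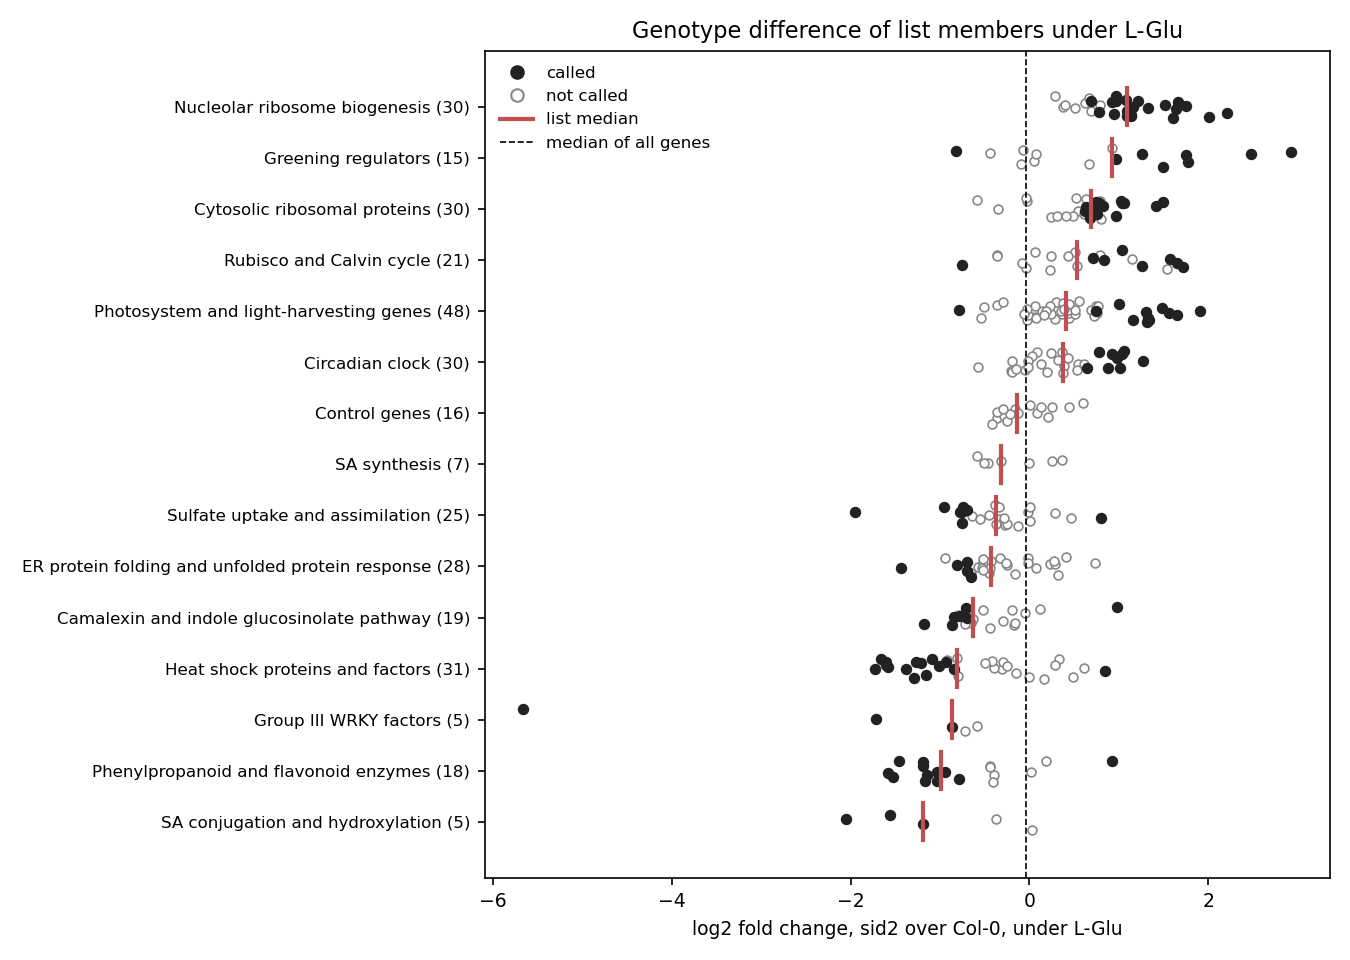
Log2 fold change of sid2 over Col-0 under L-Glu for the measured members of 15 gene lists, with filled circles for called genes, open circles for genes not called, a red bar at each list's median and a dashed line at the median of all genes. Nucleolar genes lie wholly to the right of 0, control genes lie around 0 with 0 called, and phenylpropanoid and heat shock genes lie mostly to the left.

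Heat shock proteins and factors were lower for 14 and higher for 1 of 31 measured genes, against 6.04% of all genes called lower, with a median of -0.81. None of the genes called lower was a heat shock transcription factor. Estimates of these factors ran from -0.805 (HSFA7A, not called) to 0.851 (HSFB2A, called higher). HSP101, the disaggregating chaperone of thermotolerance, had 547, 591 and 676 in sid2 under L-Glu, against 1756, 3895 and 1175 in Col-0 under L-Glu. All sid2 values lay below all Col-0 values, and Col-0 library 2 held the highest (log2 fold change -1.73 ± 0.32 (SE), adjusted p = 0.0021). HSP70B had 252, 239 and 284 in sid2, against 572, 1435 and 666 in Col-0, again with Col-0 library 2 highest (log2 fold change -1.65 ± 0.29 (SE), adjusted p = 0.00149). HSP90.1 had 1040.1, 1029 and 1568 in sid2, against 2651, 6799 and 2616 in Col-0 (log2 fold change -1.6 ± 0.29 (SE), adjusted p = 0.00207), and the nucleotide exchange factor FES1A had 326, 320.4 and 538 in sid2, against 783, 1612 and 798 in Col-0 (log2 fold change -1.38 ± 0.25 (SE), adjusted p = 0.00216). HSP70 (-1.27) and the co-chaperone BAG6 (-1.6) were also lower and the repressor HSFB2A higher (0.85, lost without library 2 of either genotype), all chosen after their values were seen. The interaction was called downward for 5 of the 31, against 0.671% of all genes, among them HSP101 (-2.35) and HSP70B (-2.46). Under urea the list's median was 0.22 with 0 calls. Per library, the median level of the list relative to the mean of the 6 libraries was -0.57, -0.58 and -0.19 in sid2, against 0.14, 0.97 and 0.13 in Col-0. Without Col-0 library 2 the list had 8 lower and 0 higher genes (median -0.50), and the same counts without sid2 library 2 (median -0.71). The heat shock element core was found in 8 of 31 windows (25.8%), against 15.9% of all windows. Of the lowered genes named here, FES1A and BAG6 held 1 core each, and HSP101, HSP70B, HSP90.1 and HSP70 held 0. Site II elements were found in 12 of the 31 windows (38.7%), against 24% of all windows.

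Genes of protein folding in the endoplasmic reticulum were lower for 5 of 28 (17.86%, against 6.04% of all genes), with a median of -0.43. The count was 1 without Col-0 library 2 and 2 without sid2 library 2. The calreticulin CRT1 (-0.65), the HSP90 homologue SHD (-0.69) and the disulfide isomerase PDIL1-1 (-0.70) lost their calls in both cases. CRT3, a calreticulin that folds immune receptors, had 188, 169 and 229.9 in sid2, against 521, 469 and 608 in Col-0, with no overlap and little spread (log2 fold change -1.43 ± 0.18 (SE), adjusted p = 0.000208). The genotype difference of CRT3 also differed from that under urea (interaction -1.14, adjusted p = 0.0328).

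Phenylpropanoid and flavonoid enzymes, which make lignin precursors and flavonols, were lower for 11 and higher for 1 of 18 measured, with a median of -0.99. Over all genes, 6.04% were lower and 7.27% higher. The list's counts were 8 and 1 without Col-0 library 2 and 10 and 1 without sid2 library 2. CCOAMT, a methyltransferase of lignin monomer synthesis, had 373, 320.0 and 286 in sid2 under L-Glu, against 699, 1243 and 822 in Col-0 under L-Glu. No sid2 library reached the lowest Col-0 library (log2 fold change -1.45 ± 0.20 (SE), adjusted p = 0.000369). 4CL1, which activates hydroxycinnamic acids, had 117, 72.1 and 77.3 in sid2, against 209, 362 and 252 in Col-0 (log2 fold change -1.58 ± 0.24 (SE), adjusted p = 0.000502). The entry enzyme PAL2 had 126, 115 and 109 in sid2, against 214, 392 and 231 in Col-0 (log2 fold change -1.19 ± 0.22 (SE), adjusted p = 0.00243), and HCT, at the branch to lignin, had 92.4, 92.3 and 119 in sid2, against 181, 379 and 177 in Col-0 (log2 fold change -1.17 ± 0.24 (SE), adjusted p = 0.00393). C4H (-1.03), PAL1 (-1.19) and PAL4 (-1.53, lost without Col-0 library 2) were lower and the flavonol glucosyltransferase UGT78D2 was higher (0.93), all chosen after their values were seen. Under urea 0 of the 18 were called (median 0.12), and the interaction was called downward for 4, against 0.671% of all genes. ASFT, which adds ferulate to suberin, had 19, 13.5 and 8.9 in sid2, against 44, 166 and 61.8 in Col-0 (log2 fold change -2.27 ± 0.37 (SE), adjusted p = 0.00088), and was 1 of 2 lowered among 14 genes of suberin and very-long-chain lipids. The other, the fatty alcohol caffeoyltransferase gene FACT (-1.18), lost its call without library 2 of either genotype.

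**Figure D4:**
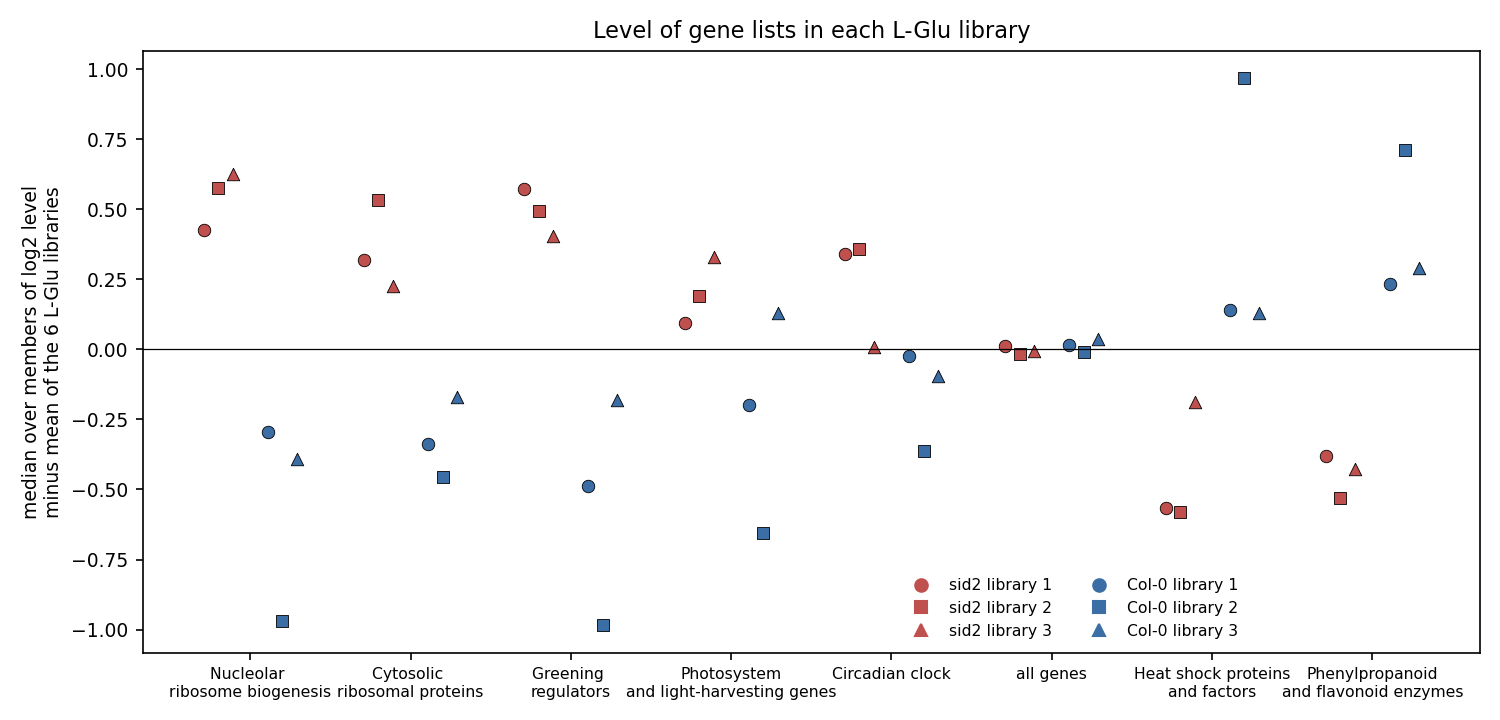
Median over the members of 7 gene lists and of all genes, in each of the 6 L-Glu libraries, of the log2 level minus the mean of the 6 libraries. Col-0 library 2 (blue squares) lies farthest from sid2 in the lists shown, the all-gene medians lie near 0, and the 3 sid2 libraries lie on one side of the 3 Col-0 libraries except where Col-0 library 3 lies within the sid2 range for photosystem genes.

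Camalexin and indole glucosinolate genes were lower for 6 and higher for 1 of 19 (median -0.63), and 3 and 2 of the lower calls were made without library 2 of Col-0 and of sid2. IGMT2, a methyltransferase of indole glucosinolates, had 2749, 2301 and 2041 in sid2, against 6228, 5035 and 4793 in Col-0 (log2 fold change -1.18 ± 0.20 (SE), adjusted p = 0.00125), and CYP83B1, which commits indole-3-acetaldoxime to this pathway, was lower by a smaller margin (log2 fold change -0.84, adjusted p = 0.00565). CYP79B2, an upstream enzyme of the pathway (-0.78), and PEN2, a myrosinase (-0.69), lost their calls without sid2 library 2. Sulfate uptake and assimilation genes were lower for 8 and higher for 1 of 25 (median -0.37), against 6.04% and 7.27% of all genes. These counts became 1 and 1 without Col-0 library 2 and 3 and 0 without sid2 library 2. The ATP sulfurylase gene APS3 (-0.95), the serine acetyltransferase gene SERAT2;2 (-0.74) and the sulfite reductase gene SIR (-0.70) were among the calls lost without Col-0 library 2. The sulfate transporter gene SULTR2;1 had 24.4, 14.3 and 11.6 in sid2, against 32.4, 179.9 and 62.6 in Col-0, where Col-0 library 2 exceeded the other Col-0 libraries several times (log2 fold change -1.95 ± 0.40 (SE), adjusted p = 0.00428).

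Auxin response genes were higher for 6 (19.35%) and lower for 3 (9.68%) of 31 measured, against 7.27% and 6.04% of all genes (median -0.12). The counts were 3 and 1 without Col-0 library 2 and 3 and 2 without sid2 library 2. The Aux/IAA repressor gene IAA7 had 174, 198 and 135 in sid2 under L-Glu, against 25, 22.2 and 72.6 in Col-0 under L-Glu. The genotypes did not overlap, and Col-0 libraries 1 and 2 were lowest (log2 fold change 2.16 ± 0.30 (SE), adjusted p = 0.000369). IAA2 had 1428, 1520.1 and 1279.8 in sid2, against 452, 272 and 527 in Col-0 (log2 fold change 1.8 ± 0.24 (SE), adjusted p = 0.000258), and IAA3 had 189, 170.2 and 176 in sid2, against 55.8, 34.5 and 74.3 in Col-0 (log2 fold change 1.7 ± 0.27 (SE), adjusted p = 0.000833). GH3.17, which couples auxin to amino acids, was lower (log2 fold change -1.38, adjusted p = 0.0021). Among 21 genes for uptake and reduction of nitrogen compounds other than amino acids, 4 were higher (19.1%) and 2 lower (9.52%), against 7.27% and 6.04% of all genes, but 1 was higher and 1 lower without library 2 of either genotype. The ammonium transporter gene AMT2 (0.88, higher) and the vacuolar nitrate exchanger gene CLCA (-0.76, lower) were among the calls lost in both cases. The nitrate reductase gene NIA2 had 707, 885 and 439 in sid2, against 240.1, 198 and 334 in Col-0 (log2 fold change 1.36, adjusted p = 0.00323), and the root xylem-loading nitrate transporter gene NRT1.5 had 167, 114 and 202 in sid2, against 309.6, 424 and 345 in Col-0 (log2 fold change -1.17, adjusted p = 0.00151). Of 14 genes of glutamate, glutamine and GABA metabolism, 2 were lower (14.29%) and 0 higher. These were POP2, the GABA transaminase (-0.87), and GLU2, a ferredoxin-dependent glutamate synthase (-0.67), whose call was lost without library 2 of either genotype. Of 10 glutamate receptor-like channel genes, GLR1.3 was lower (-1.28) and GLR3.3 higher (0.74, lost without library 2 of either genotype). Control genes used for normalization in other studies gave 0 calls among 16 (median -0.14).

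Several genes at the extremes of the comparison or of the interaction belong to none of these lists. AT2G15020, an uncharacterized protein gene, had the highest estimate, with 293, 536 and 264 in sid2 under L-Glu, against 13.2, 16.6 and 70.5 in Col-0 under L-Glu. Col-0 libraries 1 and 2 were far lower than any other library of the 6 (log2 fold change 3.58 ± 0.41 (SE), adjusted p = 7.45e-05). The glutaredoxin family gene AT1G64500 had 986, 1404 and 785 in sid2, against 145, 125 and 303 in Col-0 (log2 fold change 2.52, adjusted p = 0.000118). The uncharacterized gene AT3G28160 (2.42), the Dof-type zinc finger gene AT1G26790 (2.22) and AT2G20720, a pentatricopeptide repeat gene (2.28), were also among the 15 highest. AT2G20720 had 5558, 6253 and 5336 in sid2 and 2047, 506 and 1543 in Col-0 under L-Glu, but 11.1 and 10.6 on average in sid2 and Col-0 under urea.

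AT3G19680, a protein-coding gene, had one of the 5 highest interactions (2.47, adjusted p = 0.0168), with 633, 633 and 278 in sid2, against 177, 107 and 87.8 in Col-0 under L-Glu (log2 fold change 1.99, adjusted p = 0.00088). AT4G15990 had one of the 5 lowest (-2.61, adjusted p = 0.0297), with 88.2, 55.7 and 110.2 in sid2, against 136, 283 and 205 in Col-0 under L-Glu (log2 fold change -1.25, adjusted p = 0.0455), and 42.7, 43.9 and 35.3 in sid2, against 3.82, 26.46 and 19.4 in Col-0 under urea. The L-Glu call of AT4G15990 was lost without library 2 of either genotype, among other settings.

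Among the 15 lowest was a lipid-transfer family gene, AT3G22620, with 13.4, 12.6 and 9.82 in sid2, against 50.4, 158 and 51.6 in Col-0 (log2 fold change -2.35 ± 0.34 (SE), adjusted p = 0.000412). Under urea its estimate was positive (0.74), and the interaction was called (-3.09, adjusted p = 0.00745). CEP1, a cysteine endopeptidase of programmed cell death, had 12.5, 9.89 and 25.5 in sid2, against 78.2, 141 and 61.9 in Col-0 (log2 fold change -2.32, adjusted p = 0.000317). BFN1, a nuclease of senescence and cell death, had 7.93, 4.73 and 21.9 in sid2, against 29, 68.8 and 53.7 in Col-0 (log2 fold change -1.94, adjusted p = 0.00233). The microtubule motor gene AT5G66310 had 387, 312 and 326 in sid2, against 1513, 1140.1 and 1212 in Col-0, with little spread (log2 fold change -1.9 ± 0.19 (SE), adjusted p = 2.03e-05), and 3xHMG-box2, a protein of mitotic chromosomes, had 97.1, 60.7 and 73.6 in sid2, against 286, 410.2 and 207 in Col-0 (log2 fold change -1.89, adjusted p = 0.000532). The glycosyl hydrolase gene AT1G66250 (-1.92), the hydroxyproline-rich glycoprotein gene PELPK1 (-1.98, lost without sid2 library 2) and the glycine-rich protein gene AT4G33610 (-2.17, lost without library 2 of either genotype) completed this set.

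Only 16 genes were called in both treatments, all in the same direction. All 16 had non-overlapping genotypes under L-Glu, as had 33.8% of all genes, and the calls rest on the same values. The 9 that were lower in both were WRKY54, UGT74F2, WRKY51, DMR6, the beta-glucosidase gene BGLU11 (-1.38 under L-Glu and -1.28 under urea), the cell wall peroxidase gene PRXCB (-1.38 and -1.58), AT4G01870 (tolB-like, -1.12 and -1.21), AT1G35710 (a leucine-rich repeat kinase, -1.03 and -1.37) and GLYI7 (glyoxalase family, -0.91 and -1.21). The 7 that were higher in both lay in 2 short stretches of the genome. A further 21 genes were called under urea but not under L-Glu.

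The first stretch held 16 neighbouring measured genes near the start of chromosome 3, from AT3G01770 to AT3G01980 (chr3:275333-329387 in TAIR10.1, 54.1 kb, 25 annotated genes of which 23 code for proteins). The 16 were picked as a run of neighbours with estimates above 0.4 in both treatments. That choice in part sets their level and the contrast with their neighbours. Their median was 0.83 (range 0.40 to 1.46) under L-Glu and 1.02 (range 0.60 to 1.99) under urea. Of the 16, 9 and 6 were called higher, against 7.27% and 0.0671% of all genes. The number called under L-Glu was 7 to 11 under the alternatives. The number called under urea was 1 without sid2 urea library 1 and in a fit of the 6 urea libraries, 2 without sid2 urea library 3 and without the intensity trend, and 3 without Col-0 urea library 3, sid2 urea library 2 or sid2 L-Glu library 1 or 2. The 10 measured neighbours on each side had medians of -0.10 and 0.03, with 3 higher and 2 lower under L-Glu and 0 called under urea. SOX, the sulfite oxidase gene, had 364, 355 and 378 in sid2, against 168, 191 and 198 in Col-0 under L-Glu (log2 fold change 0.97) and 699.7, 828 and 744 in sid2, against 305, 368 and 389.6 in Col-0 under urea (1.09). BET10, a bromodomain protein gene at the edge of the stretch, had 608, 512 and 497 in sid2, against 269.9, 228 and 193 in Col-0 under L-Glu (1.22) and 601, 553 and 687 in sid2, against 304, 337 and 258 in Col-0 under urea (1.03). TPLATE, a subunit of an endocytic adaptor complex, had 199, 206 and 209 in sid2, against 91.3, 143 and 93.7 in Col-0 under L-Glu (0.91; 1.16 under urea). The other genes higher in both treatments here were AT3G01800 (1.46 and 1.04), AT3G01820 (1.26 and 0.99) and AT3G01860 (0.69 and 1.08).

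The second stretch, picked by the same rule, held 5 measured genes on chromosome 5, from AT5G06290 to AT5G06350 (chr5:1919080-1944366, 8 annotated genes). Its medians were 1.03 under L-Glu and 0.96 under urea, and 4 and 1 genes were called higher. The L-Glu count was 2 without Col-0 library 2 or sid2 library 3, and the urea count was 0 without Col-0 urea library 1 or any 1 sid2 urea library. It begins with 2-Cys Prx B, a plastid peroxiredoxin gene, which had 117, 78.1 and 98.4 in sid2, against 37.9, 47.5 and 60.9 in Col-0 under L-Glu (0.96) and was higher under urea as well (1.1). Its 20 measured neighbours had medians of 0.12 and 0.25, with 4 higher and 1 lower under L-Glu, and several on the far side also had positive estimates in both treatments. Among 14819 genes with a position, no other stretch above 0.4 in both treatments was longer than 2 genes, and no stretch below -0.4 was longer than 2 genes. At a limit of 0.2, the longest others held 4 genes. All 16 and all 5 estimates, picked as above 0.4 in the main fit, stayed above 0 in both treatments under every alternative. The alternatives included each library left out in turn. The limit of 0.4 was chosen after the values were seen, and the cause of these stretches was not tested. SID2 lies on chromosome 1.

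**Figure D5:**
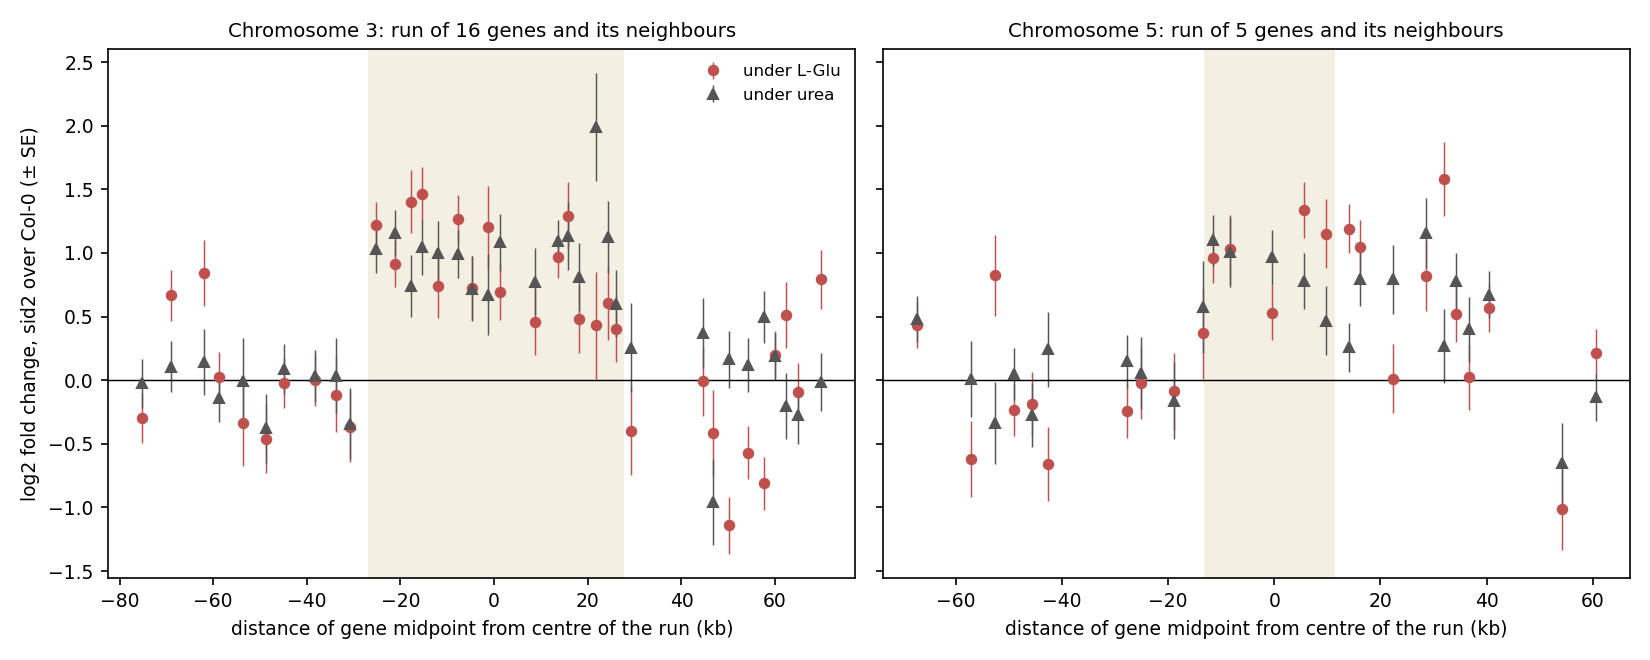
Log2 fold change of sid2 over Col-0 (± SE) for the measured genes of the chromosome 3 stretch (left) and the chromosome 5 stretch (right) and 10 measured neighbours on each side, against distance from the centre of the stretch in kb, under L-Glu (red circles) and under urea (grey triangles). Inside the shaded stretches all estimates lie above 0.4 in both treatments, the rule by which the stretches were picked. Neighbours of the chromosome 3 stretch scatter around 0.

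Markers of single tissues were compared for the whole seedlings. The summed signal of 10 measured root markers was 3884 to 4727 in sid2, against 5364 to 10100 in Col-0, mostly from BGLU23, and 1 marker was called, PHO1 (-0.85). The sum of 9 guard cell and epidermis markers was 639 to 646 in sid2, against 664.5 to 1106 in Col-0, with ML1 higher (0.68) and KAT1 (-1.19), CER3 (-0.73) and FAMA (-0.60) lower, all lost without sid2 library 2. The sum of 7 phloem and xylem markers was 235 to 263 in sid2, against 279 to 380.5 in Col-0, with 0 called. Col-0 library 2 gave the highest root and guard cell sums, and the part of these markers in the gene group differences was not tested. Of 12 seed storage markers 0 and of 12 pollen and flower markers 1 were in the table, and no marker in the table was at 0. Of 69 organelle-encoded genes, 2 were lower (ATCG01110, -1.33, and ATCG00190, -1.03, both lost without library 2 of either genotype) and 0 higher, while 62 estimates were below 0 (median -0.48).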

How the data were processed

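RNA was sequenced from 12 seedling libraries, 3 per group. The authors deposited normalized signal per gene, which is neither whole counts nor CPM. The submitters' processing notes name, with no role given, edgeR 3.22.3, HTSeq 0.6.0, TopHat2 2.1.0, TopHat and TAIR10. How the signal was normalized, its read depth and the use of strand are not given in the sources used here. Antisense, overlapping or near-identical genes may therefore share reads. Signal was scaled by 3.49 for all libraries alike (to a mean total like that of CPM) and taken to log2 after adding 1 scaled unit, so fold changes are on that scale and those of weak genes are understated. Requiring a mean of 1 scaled unit left out 0 genes. One limma 3.58.1 model (R 4.3.3) held all 12 libraries, with group means, a trended prior and 8 residual degrees of freedom, and the contrasts were sid2 minus Col-0 under L-Glu, the same under urea, and their difference. A gene is called where the two-sided p, adjusted by Benjamini and Hochberg over 14897 genes, is under 0.05. On simulated data for the L-Glu comparison with 200 of 14897 genes changed, 1.49% of 67 changes of 0.5 log2 units, 50.7% of 67 of 1 and 100% of 66 of 2 were recovered, with 4 false calls. The simulated noise was independent between genes and had the same spread in all libraries. It held no deviation shared by many genes, as in Col-0 library 2, so these rates do not measure the error of the real calls. Genes named are SID2, the 15 highest and 15 lowest called genes without overlap whose mean reached 5 scaled units, up to 4 per list by p, and the 5 highest and 5 lowest interactions. Of the 245 genes of this rule, all 178 called under L-Glu are named, while 62 of those not called were left out. Other names were chosen after their values were seen. The lists and this rule were written with earlier results of these data known. Positions and promoter windows come from the RefSeq TAIR10.1 annotation, which held 14819 of the identifiers and gave windows for 14815. Alternatives were other pseudocounts, scalings, filter, variance models, a replicate block, fits within a treatment and each library left out.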

Additional observations from a re-analysis of the deposited data

Results flagged for a closer look

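The 51 genes below were singled out because their genotype difference under L-Glu differed from their genotype difference under urea, by the interaction term of limma with Benjamini-Hochberg adjustment over all genes. They are those of the 204 genes followed through the processing alternatives that had such a call. The followed genes were chosen in part by these same values, so their number is a description only. Each value is the log2 fold change of sid2 over Col-0 under L-Glu minus that under urea. All 291 interaction estimates called over the table kept their sign without Col-0 library 2 or sid2 library 2 of the L-Glu group, but 43 and 9 of them were called again.

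The value was positive for 28 genes. Among ribosome-related genes it was 2.61 for TRM82, 2.55 for FIB2, 2.11 for PRMT3, 1.94 for ENP1, 1.83 for LSG1-2, 1.25 for NUC-L1, 1.22 for NOP56, 1.22 for NUG2, 1.07 for FIB1, 1.86 for RPSAB, 1.4 for RPS18A, 1.28 for RPS5B and 1.09 for RPL5B. Among light and photosynthesis genes it was 2.83 for GATA17, 2.13 for ELIP1, 1.55 for HY5, 1.5 for HYH and 1.61 for FNR2. Among defence and calcium genes it was 2.36 for CML41, 1.96 for RLM3, 1.64 for WRKY18 and 1.55 for ACA12. It was 2.24 for IAA7 and 1.71 for IAA2, which encode auxin response repressors. It was 2.65 for AT2G15020, 2.47 for AT3G19680, 2.29 for AT3G28160 and 1.91 for AT1G64500.

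The value was negative for 23 genes. Among WRKY factors it was -3.31 for WRKY54 and -1.72 for WRKY30. Among chaperone genes it was -2.46 for HSP70B, -2.35 for HSP101, -1.86 for HSP90.1, -1.49 for HSP70 and -1.14 for CRT3. Among phenylpropanoid and suberin genes it was -1.62 for PAL2, -1.5 for CCOAMT, -1.39 for 4CL1 and -2.3 for ASFT. It was -1.35 for the antenna gene LHCB1.1 and -1.58 for the nitrate transporter gene NRT1.5. It was -1.03 for LOX3, -1.24 for UMAMIT18, -1.72 for VTL1 and -0.97 for CER3. It was -3.09 for AT3G22620, -2.61 for AT4G15990, -1.96 for CEP1, -1.87 for AT1G66250, -1.77 for 3xHMG-box2 and -1.66 for AT5G66310.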

How the results depend on the processing

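Of the 204 genes followed through the alternatives, 198 were called under L-Glu, 105 of these under every alternative that gave them a value, and 0 changed direction. Genes named only as called in both treatments, such as BGLU11, PRXCB and SOX, were not among the 204. A minimum mean of 10 scaled units left 8 of the 204 without a value, 3 of the 105 among them. The count of 1983 calls under L-Glu ranged from 792 (without sid2 L-Glu library 2) to 2649 (without Col-0 urea library 1) when single libraries were left out, with 1284 without sid2 library 1, and stayed within 1.5 times under the other pseudocounts, scalings, filter and models. For urea, the 37 calls became 20 with a pseudocount of 5, 60 with each library scaled to one total, 12 without the intensity trend and 5 in a fit of the 6 urea libraries, and ranged from 13 to 37 with single libraries left out. The 291 interaction calls became 453 with a pseudocount of 5, 151 after quantile normalization and 143 without the intensity trend, and ranged from 9 (without sid2 L-Glu library 2) to 367. Scaling to one total moved the all-gene median under urea from 0.014 to -0.098. The cause of these changes was not tested.

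Under L-Glu, deviations of same-numbered libraries correlated at 0.142, -0.110 and 0.112, so the replicate numbers were not taken to pair the libraries, and not every library correlated best with its own number. With the replicate number as a block, 2360 genes were called under L-Glu (1243 higher, 1117 lower), of which 1971 were among the 1983. Under urea the correlations were 0.126, 0.219 and 0.196 for same-numbered libraries and -0.127 to -0.048 for the others. There every library correlated best with its own number, but the main model held no block in either treatment. The block gave 49 calls under urea, against 37 without it, and 426 for the interaction, against 291. Read depth is unknown and limits weak genes to an unknown degree.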

Other observations

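Hormone, metabolism and transport lists not described above follow, and each value below is a log2 fold change of sid2 over Col-0 under L-Glu. Over all genes, 7.27% were called higher and 6.04% lower. The lists lay on both sides of these shares, from 17.65% higher and 11.76% lower for abscisic acid to 3.85% and 0% for autophagy. Jasmonate synthesis genes were lower for 3 and higher for 0 of 16. The lipoxygenase genes LOX1 (-1.03) and LOX3 (-0.82) kept their calls without library 2 of either genotype, and LOX6 (-0.75) lost its call in both cases. JAZ repressors of jasmonate signalling were higher for 2 and lower for 0 of 10, JAZ9 (1.26) in both cases and JAZ6 (0.80) in neither. The NAC factor gene ANAC055 (1.04), the jasmonate oxidase gene JOX2 (0.72) and the receptor gene COI1 (-0.67) were called among 17 further jasmonate genes, and 0 of those 3 calls held in either case. Abscisic acid and dehydration genes were higher for 3 and lower for 2 of 17. The receptor gene PYL5 (1.31) and the zeaxanthin epoxidase gene ABA1 (0.77) were higher and the aldehyde oxidase gene AAO3 (-0.90) lower in both cases, while KIN2 (1.64) lost its call. EIL1 (-0.72) and EBF2 (0.62) were the calls among 21 ethylene genes, and both were lost without sid2 library 2. PR3, a basic chitinase gene, was the only call among 5 pathogenesis-related genes (-1.14) and held in both cases.

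In primary metabolism, the asparagine synthetase gene ASN3 was higher (1.33) with or without library 2 of either genotype. ASP2 (0.72), ALDH12A1 (-0.85) and ASP5 (-0.51), the other calls among 18 genes of asparagine, aspartate and proline metabolism, were lost in both cases. Starch genes were higher for 4 and lower for 1 of 25, with the beta-amylase gene BAM3 (1.1) held in both cases and ADG1 (0.61), ADG2 (0.66) and LSF2 (-0.88) lost in both. The glycolate oxidase gene GOX1 of photorespiration was higher (1.96) in both cases, and PGLP2 (-1.06) and GOX3 (-0.79) were lower, both lost without Col-0 library 2. Genes of chlorophyll breakdown and leaf senescence were lower for 4, BFN1 among them, and higher for 1 of 22. The chlorophyll b reductase gene NOL (-1.33) kept its lower call in both cases, while ORE1 (-0.61) and ANAC016 (0.80) lost theirs. Tryptophan synthesis genes were lower for 4 and higher for 1 of 17, and the lower calls, TSA1 (-0.79), DHS1 (-0.65), ASB1 (-0.65) and PAT1 (-0.61), were lost in both cases. Amino acid importers were lower for 3 and higher for 0 of 17, with UMAMIT18 (-1.21) held in both cases and AAP5 (-0.84) and GDU3 (-0.85) lost. Of 11 iron genes, VTL1 (-1.34) was lower in both cases and the ferric reductase gene FRO2 (-1.03) lost its lower call.

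The remaining calls of the rule held in at most 1 of these 2 cases. They were PHO1 (-0.85), PHO2 (-0.83), PAP17 (-0.80) and SQD1 (-0.66) of 5 lowered among 18 phosphate starvation genes, and SUC1 (-0.83), PMT5 (-0.77), SWEET12 (-0.75) and STP7 (-0.61) of 22 sugar transporters and invertases. They were also CRF6 (1.04), ANAC013 (0.72) and TRX-H5 (-0.96) of 20 oxidative stress genes, CAT3 (-0.95) and FSD3 (-0.86) of 18 antioxidant enzymes, and GSTU18 (1.25) and GSTU17 (1.05) of 17 tau class glutathione transferases. The last were GTR1 (-0.88) and GTR2 (-0.61), which transport glucosinolates, PIP1A (-0.66) of 14 aquaporins, APG8B (0.69) of 26 autophagy genes, and RNR2A (0.71) and CYCA2;3 (-1.16) of 17 genes of DNA replication and cell division.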
